A study of Mus musculus with 15 samples.

Results

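The genes described here are Ccl2, Ccl3, Ccl4, Ccl5, Ccl6, Ccl7, Ccl9, Ccl12, Ccl17 and Ccl22, which encode CC chemokines, small secreted proteins that attract leukocytes. They were taken by gene symbol and make up 10 of the 38924 genes listed in each library, and all 10 passed the filter on low counts. RNA-seq was run on myeloid cells that had been sorted from dissociated brains of 12-month male wild type C57BL/6J mice, an inbred laboratory strain. Some mice were kept on chow, the control diet (CD), and the others received a western diet (WD) from 2 months of age. The sort kept CD11b+ cells without the T cell antigen CD3e and divided them by their level of CD45, the pan-leukocyte antigen encoded by Ptprc, into CD45hi and CD45lo cells. There were 4 libraries of CD45hi and 4 of CD45lo cells from CD-fed mice, and 3 of CD45hi and 4 of CD45lo cells from WD-fed mice. According to the study the counts were deposited per animal, so the spread between replicates is that between mice. CD45hi and CD45lo libraries share numbers in the sample titles and in the file names, but these match the WD libraries differently. The sources used here do not say whether a shared number means the same mouse. The main fit did not pair libraries, and fits with a block by either number are given at the end.

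CC chemokines are named for a pair of neighbouring cysteines near the start of the mature protein, and they signal through G protein-coupled receptors on the cells they attract. Ccl2, Ccl7 and Ccl12 are monocyte chemoattractants that act through Ccr2. Ccl3, Ccl5, Ccl6 and Ccl9 are ligands of Ccr1, and Ccl17 and Ccl22 are ligands of Ccr4. In the brain, microglia, macrophages at the borders of the tissue and blood-derived leukocytes can all make chemokines of this family.

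In mm10 with the GENCODE M21 annotation, 8 of the 10 genes lie on chromosome 11 and 2 on chromosome 8. Ccl2 (chr11:82035571-82037453, + strand), Ccl7 (chr11:82045712-82047525, + strand) and Ccl12 (chr11:82101845-82103400, + strand) lie together, with gaps of 8.3 kb and 54.3 kb. The next member lies 1422.4 kb further on. It belongs to a group that holds Ccl5 (chr11:83525778-83530518, - strand), Ccl9 (chr11:83572919-83578636, - strand), Ccl6 (chr11:83587882-83593087, - strand), Ccl3 (chr11:83647844-83649355, - strand) and Ccl4 (chr11:83662584-83664683, + strand). Ccl22 (chr8:94745590-94751699, + strand) and Ccl17 (chr8:94810453-94812036, + strand) are separated by 58.8 kb, which holds the fractalkine gene Cx3cl1.

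Identity of the coding sequences was counted over all alignment columns, gaps included. This lowers every pair with Ccl2, whose coding sequence has 444 bases against 273 to 366 in the others. Ccl2 had 228 bases identical to Ccl7 (291 coding bases) and 231 identical to Ccl12 (312 coding bases), each over 445 columns. Ccl3 and Ccl4 had 198 (276 coding bases each). By this measure Ccl3 and Ccl4 ranked first, at 69.5%. Ccl6 and Ccl9 followed at 66.8%, and Ccl7 and Ccl12 at 64.6%. Coding bases of these 3 pairs are shown 5′ to 3′ because the partners lie near each other in the genome. As given further on, the partners were not all called alike between the cell types, and differences between partners were not tested. The capitals mark the neighbouring cysteine codons that give the family its name.
Ccl3: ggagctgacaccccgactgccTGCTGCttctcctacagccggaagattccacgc
Ccl4: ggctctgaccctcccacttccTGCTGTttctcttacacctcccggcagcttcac
Ccl6: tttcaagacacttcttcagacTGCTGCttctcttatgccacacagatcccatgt
Ccl9: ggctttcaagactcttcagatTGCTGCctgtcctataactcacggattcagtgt
Ccl7: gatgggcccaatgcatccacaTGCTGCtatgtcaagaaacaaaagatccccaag
Ccl12: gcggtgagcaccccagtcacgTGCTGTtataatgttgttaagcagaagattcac
In mm10 these stretches lie at chr11:83648625-83648678 (Ccl3, - strand), chr11:83663461-83663514 (Ccl4, + strand), chr11:83589359-83589412 (Ccl6, - strand) and chr11:82102613-82102666 (Ccl12, + strand), each within 1 exon. The stretches of Ccl7 (chr11:82045859-82046570, + strand) and Ccl9 (chr11:83575899-83576375, - strand) each run across an intron. All 10 members held 1 such pair of cysteine codons in frame. None of their transcripts shared a window of 75 bases, the read length, with a transcript of another gene in GENCODE M21. Only Ccl9 among the 10 had counts that were not whole, in 15 of 15 libraries, so part of its reads was assigned by estimate. Gm17268 and E230016K23Rik overlap Ccl2 and Ccl6 on the opposite strand with 0 shared exon bases, and had 0 counts and 3.01 to 139 counts per library.

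Each library held 11951412 to 17912272 expected counts, the estimated read counts that the authors deposited. Counts were divided by TMM-scaled library sizes and are given as cpm, and 3 counts correspond to 0.156 to 0.282 cpm. Between genes, levels are compared only as TPM, which takes transcript length into account. CD45hi replicate 4 of the CD and CD45hi replicate 1 of the WD stood apart from their groups on the second principal component, so results that turn on them are also given without them. Of 8 microglia markers, 8 were lower in CD45hi cells of CD-fed mice and 5 in those of WD-fed mice, yet none was at 0 in any group, and the summed level of the list was 5915 to 7240 cpm in CD45hi and 12620 to 16040 cpm in CD45lo libraries. Ptprc was called higher in CD45hi cells on both diets. In bulk RNA, fewer cells of a type and less RNA per cell cannot be told apart.

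The first question was which CC chemokines differ between CD45hi and CD45lo cells. On the CD, 8 of the 10 were higher in CD45hi cells (Ccl2, Ccl3, Ccl5, Ccl6, Ccl7, Ccl12, Ccl17 and Ccl22), where 3.39% of all 14967 genes tested were called higher in CD45hi. On the WD, 7 were higher (the same genes without Ccl3), against 4.01% of all genes. No member was called lower. Ccl5, Ccl17 and Ccl22 passed the filter of 1 cpm through CD45hi libraries only, with at most 0.519, 0.0519 and 0.833 cpm in CD45lo libraries. A call lower in CD45hi was thus hardly open to them. Without the filter 8 and 7 members were called as well. A gene was called by edgeR's glmTreat against a 1.5-fold limit, with a Benjamini-Hochberg false discovery rate (FDR) under 0.05 over all genes. Every CD45hi library lay above every CD45lo library for 9 members on the CD, against 8.26% of all genes, and for 8 on the WD, against 10%. The median log2 fold change of the 10 members was 2.06 on the CD and 1.94 on the WD, and that of all genes was 0.04 and 0. Both member medians were the same with Ccl17 and Ccl22 at the pooled ratio or lower bounds given further on. On TPM in place of TMM-scaled counts, the median of all tested genes moved to -0.43 on the CD and -0.52 on the WD (difference of mean log2(TPM + 1)). On TPM, libraries also overlapped for Ccl4 on the CD and for Ccl3 and Ccl9 on the WD, and Ccl4 on the WD turned to -0.12. The share of all genes without overlap was not computed on TPM.

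**Figure D1:**
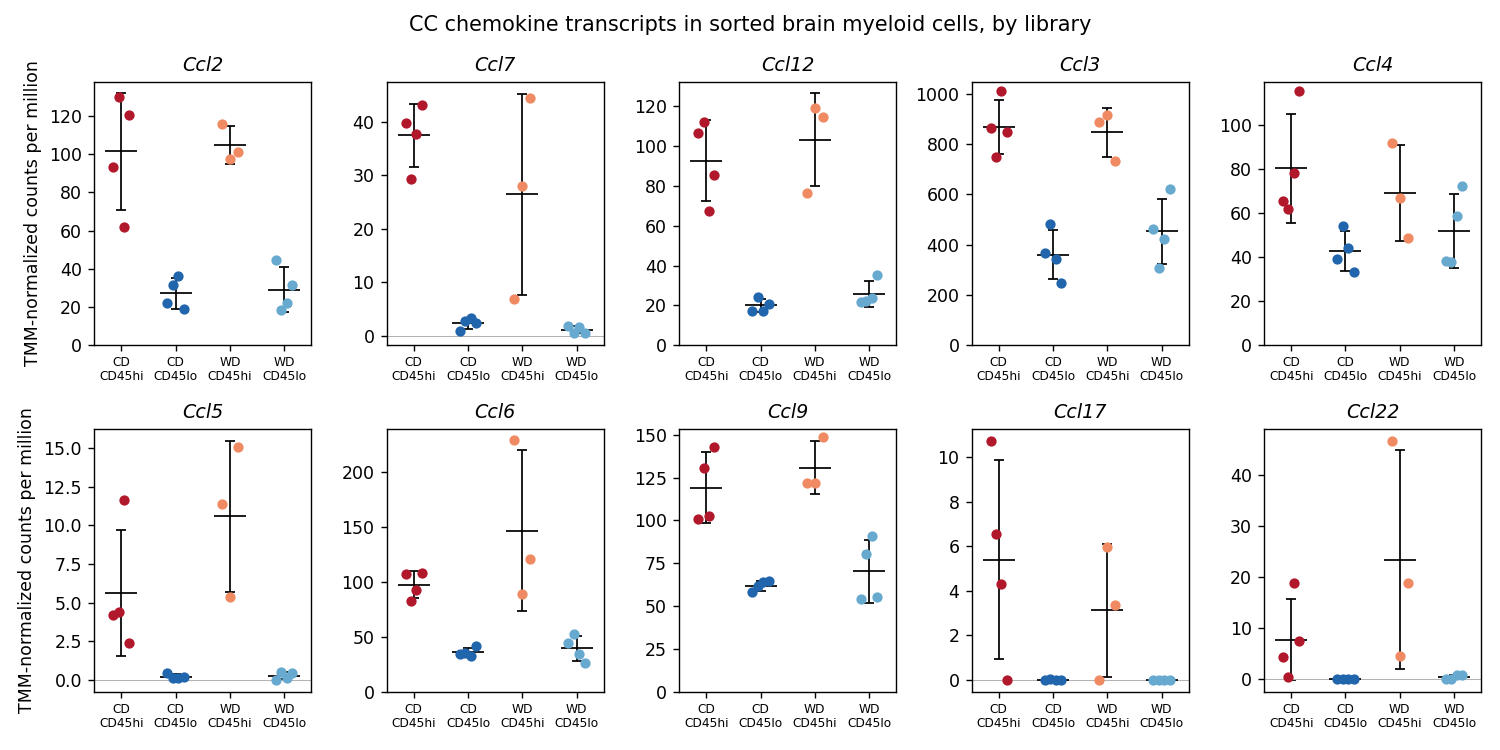
Level of each CC chemokine gene in TMM-normalized cpm (linear axes from 0) for the 4 groups of diet and CD45 level. Points are libraries and black bars are the mean with the SD, and CD45hi libraries reach into the range of the CD45lo libraries only for Ccl17 on both diets and Ccl4 on the WD.

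The Ccr2 ligands were higher in CD45hi cells on both diets, Ccl7 by the most. Ccl2 is a major signal that recruits monocytes carrying Ccr2. Its level with the CD was 93.5, 130.0, 61.8 and 121 cpm in the CD45hi libraries and 22.0, 31.6, 36.3 and 19.0 cpm in the CD45lo libraries. With the WD it stood at 116, 97.5 and 101 cpm in CD45hi and at 44.3, 18.3, 21.9 and 31.7 cpm in CD45lo. The CD45hi and CD45lo libraries did not overlap on either diet. The log2 fold change of Ccl2 was 1.90 ± 0.32 (SE; FDR = 0.00552, glmTreat) on the CD and 1.85 ± 0.34 (FDR = 0.00871) on the WD.

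Ccl7, a ligand of Ccr2 and of other receptors, was low in CD45lo cells. Its cpm with the CD were 39.7, 29.3, 37.7 and 43.2 in CD45hi libraries and 0.883, 2.65, 3.32 and 2.27 in CD45lo libraries. With the WD they were 6.87, 28.0 and 44.4 in CD45hi and 1.77, 0.519, 1.59 and 0.530 in CD45lo. The lowest CD45hi library was WD replicate 1, which still lay above all CD45lo libraries. Its fold change was 4.03 ± 0.64 on the log2 scale (SE; FDR = 0.00100, glmTreat) on the CD and 4.56 ± 0.68 (FDR = 0.000522) on the WD.

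Ccl12 is a mouse monocyte chemoattractant closely related to Ccl2. Ccl12 of the CD groups was at 106, 112, 67.2 and 85.4 cpm in CD45hi and at 17.4, 24.2, 17.3 and 20.8 cpm in CD45lo libraries. The WD groups had it at 76.3, 119 and 114 cpm in CD45hi and at 21.8, 22.0, 23.9 and 35.4 cpm in CD45lo libraries. No library of one cell type lay within the range of the other. The log2 fold change was 2.22 ± 0.27 (SE; FDR = 0.000214, glmTreat) on the CD and 2.00 ± 0.28 (FDR = 0.000955) on the WD. Ccl2, Ccl7 and Ccl12 were called on both diets under all 26 alternatives.

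The macrophage inflammatory proteins Ccl3 and Ccl4 are neighbours in the genome with coding bases identical over 69.5% of alignment columns. On the CD only Ccl3 was called, and on the WD neither was. Whether the 2 genes differed in fold change was not tested. Ccl3 was at 864, 748, 1010 and 850 cpm in CD45hi and at 366, 483, 345 and 248 cpm in CD45lo libraries with the CD. Under the WD it was at 889, 917 and 734 cpm in CD45hi and at 462, 307, 423 and 621 cpm in CD45lo libraries. On cpm the cell types did not overlap on either diet, while on TPM they overlapped on the WD. The log2 fold change was 1.27 ± 0.21 (SE; FDR = 0.0156, glmTreat) on the CD and 0.90 ± 0.22 (FDR = 0.198) on the WD, where the plain quasi-likelihood test without the 1.5-fold limit gave FDR = 0.0136. Without CD45lo replicate 4 of the CD, the lowest library, the CD call was lost (log2 fold change 1.13, FDR = 0.0616).

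On cpm, Ccl4 libraries overlapped only on the WD, while on TPM they overlapped on both diets. Ccl4 was at 65.5, 61.6, 78.4 and 116 cpm in CD45hi and at 39.2, 54.3, 44.1 and 33.3 cpm in CD45lo libraries with the CD. Its values under the WD were 91.9, 66.7 and 48.8 cpm in CD45hi and 38.2, 37.6, 58.7 and 72.1 cpm in CD45lo libraries. Ccl4 did not pass the test on the CD (log2 fold change 0.91 ± 0.30, FDR = 0.362, glmTreat) or the WD (0.42 ± 0.32, FDR = 0.823), and only DESeq2 called it on the CD (FDR = 0.0193).

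Ccl5, which acts on Ccr1 and Ccr3 and is made in quantity by T and NK cells, was near the limit of detection in CD45lo cells. In the CD groups Ccl5 had 64, 53, 132 and 37 counts in CD45hi and 8, 3, 2 and 3 counts in CD45lo libraries. In the WD groups it had 121, 80 and 196 counts in CD45hi and 0, 7, 3 and 6 counts in CD45lo libraries. The CD45hi libraries lay above all CD45lo libraries on both diets. The log2 fold change was 4.57 ± 1.02 (SE; FDR = 0.0157, glmTreat) on the CD and 5.19 ± 1.07 (FDR = 0.00791) on the WD. Among the fits that left out libraries, the CD call was lost without CD45lo replicate 2, 3 or 4 of the CD (FDR = 0.0673, 0.0632 and 0.0654). NK and T cell genes were set beside Ccl5. Of 9 such genes 4 were tested, 2 of them were called higher in CD45hi on the CD (Klrb1c and Nkg7) and 3 on the WD (these and Gzma). The summed level of the list was 10.6 to 52.7 cpm on the CD and 27.2 to 140 cpm on the WD in CD45hi, and 0.0742 to 0.659 cpm in CD45lo libraries. Trbc2 was at 0 in all libraries, Cd3e was at 0 in 3 of the 4 groups, and the part of these cells in the Ccl5 level was not tested.

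The Ccr1 ligands Ccl6 and Ccl9, made by cells of the myeloid lineage in rodents, differed less between the cell types than Ccl7 or Ccl5 did in fitted size, a difference that was not tested. Ccl6 was at 107, 83.0, 92.5 and 108 cpm in CD45hi and at 34.4, 35.4, 32.5 and 41.9 cpm in CD45lo libraries with the CD. Ccl6 of the WD groups was at 229, 89.2 and 121 cpm in CD45hi and at 44.7, 52.7, 34.8 and 26.6 cpm in CD45lo libraries. All CD45hi libraries lay above all CD45lo libraries, and WD replicate 1 was the highest. The log2 fold change of Ccl6 was 1.44 ± 0.28 (SE; FDR = 0.0263, glmTreat) on the CD and 1.88 ± 0.30 (FDR = 0.00329) on the WD. The CD call was lost by limma-voom (FDR = 0.107), without CD45hi replicate 1 or 4 (FDR = 0.0534 and 0.0583) or without CD45lo replicate 1, 2 or 3 of the CD (FDR = 0.0756, 0.0792 and 0.0787).

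Ccl9 was at 101, 131, 103 and 143 cpm in CD45hi and at 58.1, 61.6, 63.9 and 64.5 cpm in CD45lo libraries on the CD. Ccl9 of the WD groups was at 122, 122 and 149 cpm in CD45hi and at 54.4, 80.3, 91.1 and 55.4 cpm in CD45lo libraries. The libraries did not overlap on cpm, but the size of the difference was too near the 1.5-fold limit to be called by glmTreat. The log2 fold change was 0.94 ± 0.21 (SE; FDR = 0.173) on the CD and 0.89 ± 0.22 (FDR = 0.206) on the WD, and without that limit the FDR was 0.00745 and 0.0146. DESeq2 called Ccl9 on both diets (FDR = 6.85e-05 and 0.000472), and it also called Ccl3 on the WD (FDR = 0.0011).

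The Ccr4 ligands Ccl17 and Ccl22, which are made by dendritic cells and macrophages and attract T cells, were at or near 0 in CD45lo cells and uneven among CD45hi libraries. Ccl17 had 164, 79, 49 and 0 counts in CD45hi libraries with the CD and 0, 1, 0 and 0 in CD45lo. The WD groups had 0, 89 and 44 counts in CD45hi and 0 in each of 4 CD45lo libraries. The 2 CD45hi libraries without a Ccl17 read were those that stood apart on the second principal component. The ratio of pooled Ccl17 counts between CD45hi and CD45lo was 378 on the CD (95% Clopper-Pearson interval 67.3 to 14970, counting error only). On the WD the mean CD45hi level, with 1 library at 0, was at least 15.4-fold that of 3 counts per CD45lo library. Neither value covers the spread between mice. The FDR was 0.0482 on the CD and 0.0422 on the WD by glmTreat, with overlapping libraries. Both calls were lost when any 1 of 13 libraries was left out (FDR = 0.0513 to 0.152 on the CD and 0.0510 to 0.102 on the WD), and were kept without either of the libraries that stood apart. Both were lost as well by limma-voom (FDR = 0.181 and 0.272) and with the newer quasi-likelihood form of edgeR (FDR = 0.061 and 0.169).

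Ccl22 had 66, 5, 214 and 116 counts in CD45hi and 0 in each CD45lo library on the CD. Its WD counts were 496, 67 and 246 in CD45hi and 2, 1, 15 and 11 in CD45lo libraries. All CD45hi libraries lay above all CD45lo libraries of the same diet on cpm. On the CD, the mean Ccl22 level of CD45hi libraries (0.414 to 18.8 cpm) was at least 45.2-fold that of 3 counts per CD45lo library. Ccl22 was called there (FDR = 0.00292, glmTreat), a call lost with the newer quasi-likelihood form of edgeR (FDR = 0.0545). On the WD the log2 fold change was 5.61 ± 1.27 (SE; FDR = 0.0193, glmTreat), and the call was lost without CD45hi replicate 1, the library with the most Ccl22 (log2 fold change 4.62, FDR = 0.0676), or without CD45lo replicate 1 or 2 of the WD (FDR = 0.0685 and 0.0579). Without both libraries that stood apart the log2 fold change on the WD was 4.62 (FDR = 0.0643). Ccl17 was at 0 in the WD library with the most Ccl22, and Ccl22 was lowest in CD replicate 2, where Ccl17 had 79 counts.

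Dendritic cell genes were followed beside Ccl17 and Ccl22. Of 8 markers, 1 was called higher in CD45hi cells on each diet (Cd209a, a lectin of monocyte-derived dendritic cells), and 6 on the CD and 5 on the WD had an unadjusted p under 0.05 (glmTreat). Their summed level on the CD was 229 to 349 cpm in CD45hi and 165 to 215 cpm in CD45lo libraries, without overlap. On the WD it was 208 to 307 cpm and 135 to 213 cpm, with overlap. The CD45hi libraries without Ccl17 were at 297 cpm (CD) and 288 cpm (WD). Ccr7, a receptor of migrating dendritic cells, was at 0 in all CD45lo libraries and at 0 to 2.35 cpm in CD45hi libraries. The part of these cells in the levels of Ccl17 and Ccl22 was not tested.

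**Figure D2:**
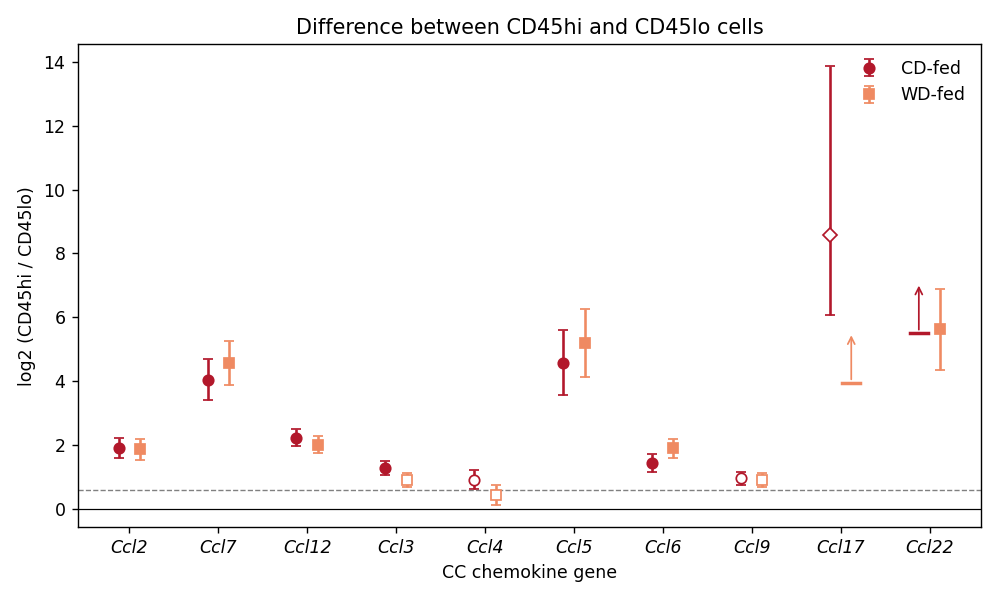
Log2 ratio of CD45hi to CD45lo cells for each CC chemokine gene on the CD (circles) and the WD (squares), with SE as bars and open symbols for genes not called; the dashed line is 1.5-fold. The open diamond is the ratio of pooled counts of Ccl17 with its 95% counting interval. Arrows start at the lower bounds for the mean CD45hi level, 15.4-fold (Ccl17, WD) and 45.2-fold (Ccl22, CD), where all CD45lo libraries were at 0.

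The makeup of the chemokine transcripts was compared per length, as TPM. Ccl3 had the highest level in each group, with a mean TPM of 1978 ± 247 (SD, n = 4) in CD45hi and 1133 ± 269 (n = 4) in CD45lo cells on the CD, and 1828 ± 167 (n = 3) and 1425 ± 345 (n = 4) on the WD. Its libraries lay above those of the next gene in every group. Ccl3 made up 64.0% ± 5.0 and 71.0% ± 4.0 of the summed TPM of the 10 genes in CD45hi and CD45lo cells on the CD, and 62.1% ± 3.0 and 72.2% ± 4.0 on the WD.

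Below Ccl3 the order of the levels differed by cell type. In CD45hi cells Ccl12 came second, at a mean of 348 TPM on the CD and 366 TPM on the WD, though its libraries overlapped those of the next gene. In CD45lo cells Ccl4 came second, at 164 TPM on the CD and 197 TPM on the WD, and its libraries were apart from those of Ccl12 on the CD (103 TPM) but not on the WD (133 TPM). In CD45hi cells Ccl4, Ccl2 and Ccl6 overlapped one another in that order on the CD, at 219, 177 and 164 TPM. Ccl7 and Ccl9 overlapped in CD45hi cells (80.3 and 68.5 TPM on the CD), whereas in CD45lo cells Ccl7 was at 6.80 TPM on the CD and 3.33 TPM on the WD and lay apart from Ccl9 (44.2 and 48.8 TPM). Ccl5, Ccl17 and Ccl22 held the lowest ranks in all groups, at 5.98 to 37.8 TPM in CD45hi and 0 to 1.45 TPM in CD45lo cells.

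The summed level of the 10 genes was 3084 ± 166 TPM in CD45hi and 1586 ± 310 TPM in CD45lo cells on the CD. On the WD it was 2944 ± 192 and 1960 ± 377 TPM. The CD45hi libraries ran from 2751 to 3281 TPM and the CD45lo libraries from 1240 to 2422 TPM, without overlap. These sums are set mainly by Ccl3.

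**Figure D3:**
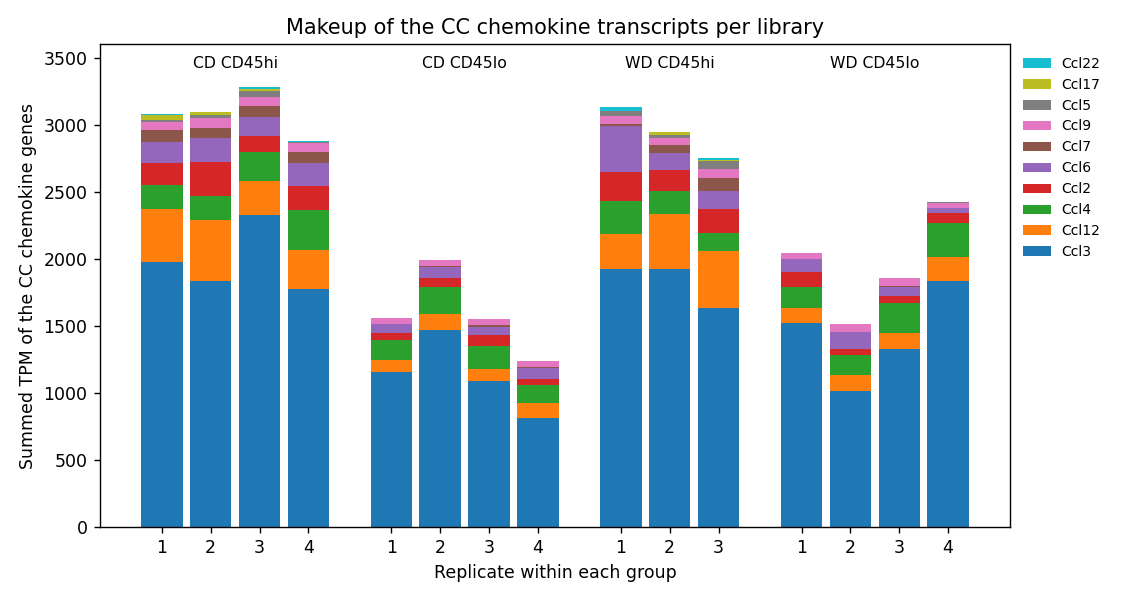
Summed TPM of the 10 CC chemokine genes in each library, stacked by gene, with replicates side by side within the 4 groups of diet and CD45 level. Ccl3 (bottom segment) takes 62.1% to 72.2% of the sum on average, and the CD45hi bars reach 2751 to 3281 TPM against 1240 to 2422 TPM for CD45lo.

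The next question was whether the WD moved these genes within a cell type. No member was called in CD45hi cells, where 0.254% of all genes (38 of 14967) were called by edgeR's quasi-likelihood test. An unadjusted p under 0.05 was reached by 0 members and by 2628 of the 14967 genes. No alternative fit, DESeq2 and limma-voom included, called a member there. Log2 fold changes of WD against CD in CD45hi cells lay between -0.79 (Ccl17) and 1.59 (Ccl22), and all libraries of the diets overlapped. Ccl6 had the lowest FDR, at 147 ± 73.3 cpm on the WD (n = 3) and 97.5 ± 12.0 cpm on the CD (n = 4), with a log2 fold change of 0.59 ± 0.30 (SE; FDR = 0.317, edgeR). Ccl2 differed by 0.05 ± 0.33 and Ccl3 by -0.04 ± 0.22 on the log2 scale in these cells. Ccl7 was at 37.5 ± 5.90 cpm on the CD and at 26.4 ± 18.8 cpm on the WD, and its log2 fold change of -0.50 ± 0.61 turned to 0.02 without both libraries that stood apart.

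In CD45lo cells no member was called either, where 0% of all genes were called, and 123 genes and 1 member had an unadjusted p under 0.05. No alternative fit called a member. The 1 member was Ccl22, with 2, 1, 15 and 11 counts in the WD libraries and 0 in each CD library, so that the diets did not overlap (unadjusted p = 0.00294, FDR = 1, edgeR). Of the 4 WD libraries 2 were at or under 3 counts, so no fold is given. Ccl12 was at 25.8 ± 6.46 cpm on the WD and 19.95 ± 3.29 cpm on the CD, and Ccl3 at 453 ± 130 and 360 ± 96.7 cpm, both with overlapping libraries. Their log2 fold changes were 0.37 ± 0.26 and 0.33 ± 0.20 (SE; FDR = 1 for both, edgeR). Ccl7 was at 1.10 ± 0.672 cpm on the WD and 2.28 ± 1.03 cpm on the CD, a log2 difference of -1.03 ± 0.59 (FDR = 1).

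Whether the difference between the cell types depended on diet was tested by the interaction of diet and CD45 level. No member was called, where 0.00668% of all genes (1 gene) were. Ccl22 alone of the members had an unadjusted p under 0.05 (FDR = 0.458, edgeR), in a fit against a group at 0. Over all genes 1515 had such a p. No alternative fit called a member. For Ccl3, called on the CD and not on the WD, the interaction was -0.37 ± 0.30 on the log2 scale (SE; FDR = 0.741, edgeR), so a difference between the diets was not shown. For Ccl2, Ccl7 and Ccl12 the interaction was -0.05 ± 0.46, 0.53 ± 0.84 and -0.21 ± 0.38.

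Each member was then set beside the genes whose pattern over the 15 libraries was most like it. Likeness was the root mean square (RMS) difference of log2 cpm, centred on each gene's mean, among 8253 genes with a mean of at least 10 cpm. The genes nearest to Ccl7 were Cd163 and Mrc1, scavenger and mannose receptors known as markers of border macrophages, at 0.72 and 0.78, where Ccl7 itself varied by 2.28 about its mean. In WD CD45hi replicate 1 all 3 genes were the lowest of the CD45hi libraries, Ccl7 at 0.20, Cd163 at -0.94 and Mrc1 at 0.73 about their means. Cd163 and Mrc1 were picked over the same 15 libraries, this one included, so the shared low value is no separate result. The border macrophage list includes Cd163 and Mrc1, so its sum is not independent of these genes. Mrc1 alone was at 456 cpm in WD CD45hi replicate 1, and at a mean of 1351 cpm in CD45hi cells on the CD. All 7 genes of that list were called higher in CD45hi on both diets, none was at 0 in any group, and their summed level was 684 cpm in WD CD45hi replicate 1, 1759 to 2511 cpm in the other CD45hi libraries and 56.6 to 217 cpm in CD45lo libraries. The part of border macrophages in the Ccl7 level was not tested.

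The gene nearest to Ccl3 was Zfp36 (RMS difference 0.19), an RNA-binding protein of the immediate early response that binds AU-rich messages, and the second was the mitochondrial gene mt-Co2 (0.24). Ccl3 varied by 0.64 about its mean. Zfp36 was at 5040 ± 447 cpm in CD45hi and 2272 ± 594 cpm in CD45lo cells on the CD, and at 5309 ± 354 and 2355 ± 538 cpm on the WD. Both genes were lowest in the same library, CD CD45lo replicate 4, where Ccl3 was at 248 cpm and Zfp36 at 1489 cpm. Zfp36 was likewise picked as nearest with this library included. Ccl2 was nearest to Ets2 (0.32), a transcription factor, and Cd83 (0.35), an activation antigen.

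**Figure D4:**
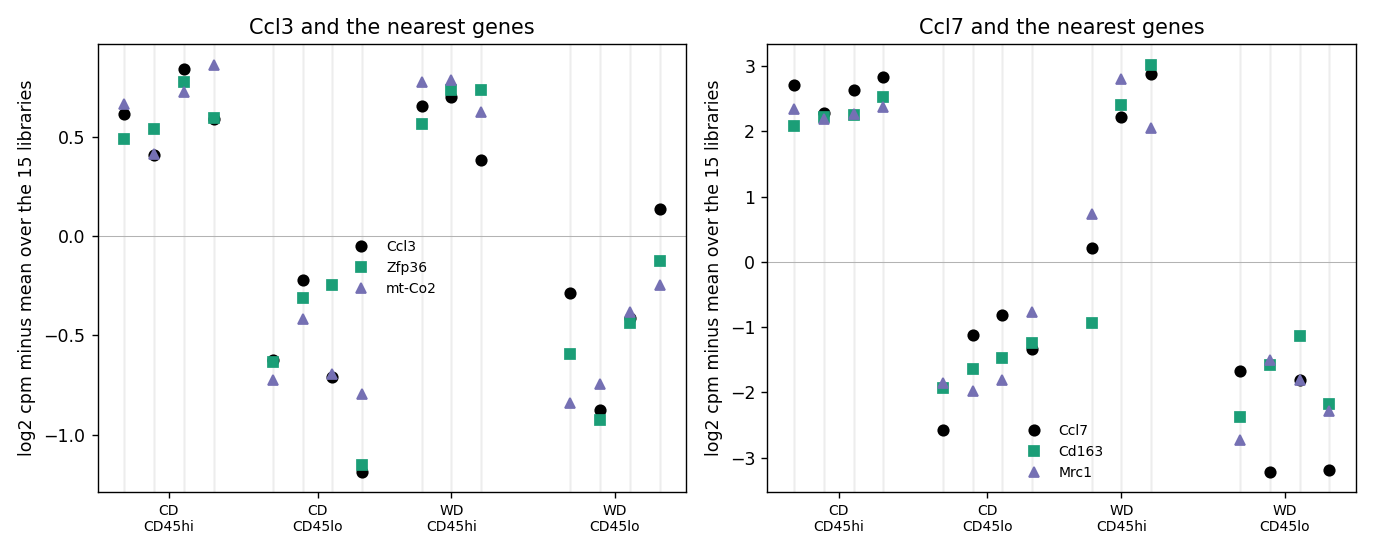
Log2 cpm of Ccl3 (left) and Ccl7 (right) and of the 2 genes nearest to each, minus each gene's mean over the 15 libraries; columns of points are libraries, grouped by diet and CD45 level. Ccl7, Cd163 and Mrc1 are low together in 1 WD CD45hi library (0.20, -0.94 and 0.73), and Ccl3 and Zfp36 are lowest in the same CD CD45lo library. The nearest genes were picked over these same libraries.

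Ccl12 was nearest to Cxcl16 (0.32), a chemokine of another class, and Tuba1c (0.32), and Ccl6 to Gm8995 (0.27) and Txn1 (0.29). Ccl4 was nearest to Rplp2 (0.18), a ribosomal protein, and Ptpn18 (0.23), a phosphatase. Ccl9 was nearest to the nucleolar protein Npm1 and the ribosomal protein Rps3a1 (both 0.21). Distances were larger for the members with few counts, 0.83 for Ccl5 (Sh3bgrl and Ptger4), 1.40 for Ccl17 (Ahr and Sorbs3) and 1.45 for Ccl22 (Sik1 and Itga4). Within a cell type, 6 pairs of members were compared across libraries, 12 relations in all, and 0 had a Benjamini-Hochberg adjusted p under 0.05 by the exact two-sided permutation test. The lowest p was that of Ccl3 and Ccl4 in the 8 CD45lo libraries, with Pearson's r = 0.83 (exact p = 0.0103, adjusted p = 0.124) and Spearman's rho = 0.79 (exact p = 0.0279, adjusted p = 0.229). Centred within diet, r was 0.80, and r was 0.52 without the 2 libraries farthest from the median of Ccl3.

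The brains were dissociated partly at a warm temperature, and a fixed list of immediate early and stress genes was therefore followed beside the chemokines. Of 22 such genes, 4 were called higher in CD45hi cells and 0 lower on each diet, namely Zfp36, Ier3, Nfkbia and Nfkbiz. Their summed level was 13720 to 17090 cpm in CD45hi and 5878 to 12250 cpm in CD45lo libraries on the CD, and 14270 to 16650 and 6611 to 12170 cpm on the WD. After Zfp36 the most abundant were Rhob and Dusp1, a phosphatase that acts on MAP kinases. Rhob was at 1250 ± 321 cpm in CD45hi and 1428 ± 194 cpm in CD45lo cells on the CD (log2 fold change -0.19 ± 0.17, FDR = 1, glmTreat). Dusp1 was at 1591 ± 311 and 912 ± 474 cpm (log2 fold change 0.80 ± 0.29, FDR = 0.501). The lowest summed level of the list, 5878 cpm, was in CD CD45lo replicate 4, which also had the lowest Ccl3 and Ccl4. The part of dissociation in the chemokine levels was not tested.

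Genes of NF-kappaB and interferon signalling, which act on chemokine transcription, gave 4 genes called higher in CD45hi of 14 on each diet and 0 lower (Tnf, Il1b, Tnfaip3 and Irf7). The inflammatory cytokine Tnf was at 105 ± 33.7 cpm in CD45hi and 22.5 ± 10.6 cpm in CD45lo cells on the CD, with a log2 fold change of 2.22 ± 0.39 (SE; FDR = 0.00561, glmTreat). On the WD it was 1.97 ± 0.41 (FDR = 0.0185). The cytokine Il1b was at 749 ± 269 and 12.9 ± 7.06 cpm on the CD, a log2 fold change of 5.86 ± 0.40 (FDR = 1.26e-07), and 5.91 ± 0.41 on the WD (FDR = 2.10e-07).

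Sequence before the start sites was taken from RefSeq (GRCm38.p6), whose promoter table held 6 of the members, Ccl3, Ccl6, Ccl9, Ccl12, Ccl17 and Ccl22. In the 250 bases before the start, on both strands, the NF-kappaB consensus was found only for Ccl9 among these 6, and in 7.25% of 32851 promoter windows of the same length. The AP-1-like motif TGANTCA was also found only for Ccl9 (6.75% of windows), and TATAAA for Ccl9 and Ccl12 (12.4% of windows). TTGCNNAA (9.56%) was in none of the 6. The last 100 bases before the start are shown for Ccl9, with the NF-kappaB match in capitals at -35 to -26, and for Ccl12, with TATAAA in capitals at -31 to -26.
Ccl9: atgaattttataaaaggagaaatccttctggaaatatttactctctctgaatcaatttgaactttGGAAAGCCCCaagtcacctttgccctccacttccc
Ccl12: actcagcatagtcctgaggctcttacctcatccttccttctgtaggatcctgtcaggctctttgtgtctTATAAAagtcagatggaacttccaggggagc
These lie at chr11:83578637-83578736 (Ccl9, - strand) and chr11:82101745-82101844 (Ccl12, + strand). The relation of these motifs to the levels in the cell types was not tested. A match is a description of these letters only, and binding was not measured.

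Receptors of the members were unevenly divided between the cell types. Of 13 receptor symbols listed, 10 genes were tested, and 3 were called higher in CD45hi on each diet (Ccr1, Ccr2 and Ccrl2) and 0 lower. Ccr2, the receptor of Ccl2, Ccl7 and Ccl12, was at 373 ± 165 cpm in CD45hi and 15.9 ± 11.6 cpm in CD45lo cells on the CD, with a log2 fold change of 4.55 ± 0.51 (SE; FDR = 3.99e-05, glmTreat), and of 3.73 ± 0.51 on the WD (FDR = 0.0003). Ccr1, a receptor of Ccl3, Ccl5, Ccl6 and Ccl9, was at 44.0 ± 19.9 and 3.83 ± 1.02 cpm on the CD, with a log2 fold change of 3.52 ± 0.45 (FDR = 0.000169), and of 3.39 ± 0.46 on the WD (FDR = 0.00033).

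Ccr3, a receptor of Ccl5 and Ccl7, was at 5.06 ± 5.38 cpm in CD45hi and 3.24 ± 2.55 cpm in CD45lo cells on the CD, with overlapping libraries. The scavenging receptor Ackr4, listed under 2 gene identifiers, was not called under either. Ccr4, the receptor of Ccl17 and Ccl22, did not pass the filter on low counts.

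Among the CC chemokines outside the 10, 13 symbols were listed and 5 genes were tested (Ccl8, Ccl24, Ccl25, Ccl27a and Ccl28). On the CD 0 were called by glmTreat, 2 had an unadjusted p under 0.05, and on the WD Ccl8 was called higher in CD45hi. Ccl8, which lies between Ccl12 and Ccl5 on chromosome 11, was at 10.1 ± 9.09 cpm in CD45hi and 0.341 ± 0.604 cpm in CD45lo cells on the CD (FDR = 0.0668, glmTreat). On the WD it was at 4.71 ± 2.23 and 0.0371 ± 0.0742 cpm (FDR = 0.0199), with all CD45lo libraries at or under 3 counts. Ccl24, an eosinophil attractant, was at 19.2 ± 16.3 and 3.19 ± 2.04 cpm on the CD (FDR = 0.267). Ccl25, Ccl27a and Ccl28 had group means of 0 to 7.01 cpm and were not called on either diet.

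Markers of blood leukocytes were also higher in CD45hi cells. The monocyte markers Ccr2, F13a1 and Plac8 were called higher on both diets, and the list of 6 such genes had a summed level of 502 to 1004 cpm in CD45hi and 16.8 to 111 cpm in CD45lo libraries. Of 10 neutrophil markers 6 were called higher on both diets (Cxcr2, Mmp8, Mmp9, Retnlg, S100a8 and S100a9), with sums of 1402 to 3855 cpm and 610 to 960 cpm. Of the neuron, astrocyte and endothelial lists, with 3, 3 and 5 genes, only Aldh1l1 (lower, CD) and Flt1 (higher, both diets) were called. No gene of the monocyte or neutrophil list was at 0 over a whole group, and the part of these cells in the chemokine levels was not tested.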

How the data were processed

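Per the labels and the methods of the study, poly(A) RNA was sequenced as 75 bp paired-end reads from a kit that does not mark strand, and the authors quantified it with RSEM 1.2.12 on mm10; the annotation release is not given in the sources used here, nor is the platform of each library. The authors deposited per gene an expected count, which is an estimated count, with TPM and FPKM values. Expected counts were rounded, and a gene was tested if 2 or more of the 15 libraries reached 1 cpm (14967 of 38924). edgeR 4.0.16 (R 4.3.3) was fitted to all libraries in 4 groups with TMM scaling and the older quasi-likelihood form, with glmTreat at 1.5-fold between cell types and glmQLFTest between diets and for the interaction, at an FDR under 0.05 over all genes. SE is the log2 fold change over the square root of F. The fits were tested on simulated data with known changes. DESeq2 1.42.0, limma 3.58.1 (voom), other scalings, filters, quasi-likelihood forms, replicate blocks and the omission of each library were the alternatives, with FPKM in place of TPM for shares.

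No identical replicate pair was found among 21 pairs (chi-square per degree of freedom of 20.6 or more). The members and lists were chosen with earlier results of these data known. Genes named outside the members were the tested CC chemokines, the tested receptors of the members, up to 3 most abundant early genes, Tnf and Il1b, the 2 nearest genes per member and genes called in a list, some of which are not reported here; Ptprc, Ccr7 and the separate values of the marker sums were chosen to describe the sort and the libraries. Totals of 11951412 to 17912272 counts set the precision, and intervals and floors of 3 counts cover counting error only.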

Additional observations from a re-analysis of the deposited data

Results flagged for a closer look

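In 3 of the 28 combinations of a member and a group of 4 libraries, 1 library lay far from the others by Dixon's test, where chance flags about 1 in 20. Ccl12 was at 35.4 cpm in CD45lo replicate 4 of the WD, and at 21.8 to 23.9 cpm in the other CD45lo libraries of that diet. Ccl5 was at 0.471 cpm in CD45lo replicate 1 of the CD, from 8 counts, and at 0.123 to 0.170 cpm in the others. Ccl17 was at 0.0519 cpm in CD45lo replicate 2 of the CD, from 1 count, and at 0 in the others.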

How the results depend on the processing

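The number of members called between CD45hi and CD45lo ran from 5 to 10 on the CD (8 as reported) and from 4 to 9 on the WD (7 as reported). Leaving out 1 library or both that stood apart (a choice made after seeing the data) gave 5 to 8 on the CD and 5 to 7 on the WD. With 5 on the CD, Ccl5, Ccl6 and Ccl17 were lost without CD45lo replicate 2 or 3, and Ccl3, Ccl5 and Ccl17 without replicate 4. With a replicate block by the numbers in the sample titles, 5 members were called on the CD and 4 on the WD, with Ccl5 (FDR = 0.119 and 0.0938), Ccl6 (0.0533 and 0.0542) and Ccl17 (0.0793 and 0.151) lost on both diets. With a replicate block by the numbers in the file names, 4 were called on the WD, where Ccl5 (FDR = 0.0797), Ccl17 (0.160) and Ccl22 (0.196, log2 fold change 4.90) were lost, and on the CD Ccl5 (0.0589) and Ccl17 (0.0785) were lost. Deviations of same-numbered libraries correlated at only -0.022 to 0.069, and the main fit did not treat them as pairs. On the CD each CD45lo library correlated best with the CD45hi library of its number (0.01, 0.049, 0.069 and 0.019). Each CD45hi library of the CD except replicate 1 did likewise. On the WD, no library correlated best with its own title number (-0.013, -0.004 and -0.022). By the file-name numbers, same-numbered WD libraries correlated at 0, 0.012 and 0.013. CD45hi replicate 3 correlated best with its file-name partner, CD45lo replicate 4, and that library with it. CD45lo replicate 3 correlated best with its file-name partner, CD45hi replicate 2, which was tied at 0.012 between it and CD45lo replicate 1. Whether libraries of a number came from the same mouse was not settled. The file-name block could not be fitted between diets, since each such number belongs to 1 diet. DESeq2, which tested against no change with the 1.5-fold limit applied afterwards, called 10 members on the CD and 9 on the WD. Diet and interaction calls stayed at 0 under all alternatives run.

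The direction between diets, in members that were not called, turned in CD45hi cells when 1 library was left out, for Ccl3 (log2 fold change -0.0994 to 0.0578), Ccl2 (-0.129 to 0.190) and Ccl4 (-0.474 to 0.0135), and for Ccl7 without both libraries that stood apart (0.0249). In CD45lo cells it turned for Ccl5 by limma-voom (-0.19). When 1 library was left out, it turned there for Ccl5 (-0.169 to 0.873), Ccl2 (-0.182 to 0.265) and Ccl6 (-0.0278 to 0.289). The cause was not tested. Ccl17 ran from -1.66 to 0 in CD45lo cells and did not turn, and its only read in these cells was in CD replicate 2. Ccl3's share of the summed level moved by less than its SD under all alternatives. FPKM in place of TPM could not move this share, since within a library the 2 measures differ by the same factor for every gene. Levels of Ccl5, Ccl17 and Ccl22 in CD45lo libraries rest on 0 to 15 counts, and differences there were not detectable at this depth unless large.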
